A study of Mus musculus with 2 samples.

Results

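NF-kappaB is a family of transcription factors, and its subunit genes and the genes of its main inhibitors were followed here by RNA sequencing in mouse Th17 cells, the T helper cells that make IL-17. The 10 genes were taken by symbol from the deposited counts: the 5 subunit genes Nfkb1, Nfkb2, Rel, Rela and Relb, and the 5 inhibitor genes Nfkbia, Nfkbib, Nfkbid, Nfkbie and Tnfaip3. All 10 were found among the 15574 genes with at least 1 read in either library. The libraries were 1 labelled CREB KO and 1 labelled wildtype, both of C57BL/6 background, and the study asked which genes the transcription factor CREB regulates in Th17 cells. Naive T cells were cultured with IL6, TGFb, IL1b and IL23 for 6 days, then stimulated through plate-bound CD3 for 4 h, and both libraries share this treatment. How CREB was deleted, the age of the animals and the number of animals behind each library are not stated in the sources used here. With 1 library per genotype no test was possible, so each difference lies between 2 libraries.

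In resting cells NF-kappaB dimers are held in the cytoplasm by inhibitor proteins. T cell receptor signals activate the IkappaB kinases, which mark the inhibitors for degradation and free the dimers to enter the nucleus. Several subunit and inhibitor genes are themselves NF-kappaB targets, so the pathway rebuilds its own inhibitors after activation. In Th17 cells, NF-kappaB subunits are known to act in T cell activation and in the induction of the lineage factor RORgammat.

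The label of the first library, called the KO-labelled library below, was not borne out by Creb1, the gene of CREB, which had 25 reads there against 13 in the wildtype library. Whether these reads fall in the deleted stretch is unknown, because the sources used here do not say which stretch was deleted. Creb1 also fell under the level filter used below for tested genes, and its ratio was 2.08 (1.04 to 4.51, counting error only). How reads that match several transcripts were counted is not given, so these few reads cannot settle the label. The libraries held 23938112 (KO-labelled) and 26525471 (wildtype) counted reads. The 5 T cell markers had reads in both libraries and summed to 2434 and 2561 CPM (reads scaled to library size), and the 6 Th17 markers summed to 984 and 2175 CPM. Of the markers of other cells, the 6 B cell markers summed to 2.21 and 2.04 CPM and the 8 myeloid and dendritic cell markers to 3.46 and 3.55 CPM. The B cell genes Ms4a1, Pax5 and Blk, the myeloid genes Lyz2 and Itgam, all 3 natural killer cell markers and Cd8a were at 0 in both, and the macrophage gene Adgre1 had 2 and 4 reads. Cd8b1, which encodes the other CD8 chain, had 234 and 237 reads. The B cell markers with the most reads were Cd79a, with 26 in each library, and Cd79b, with 25 and 26. Those of the myeloid and dendritic list were Xcr1, with 43 and 45, and Cd14, with 24 and 21. The regulatory T cell markers Foxp3 and Ikzf2 had 3 and 5 reads and 45 and 54 reads.

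The promoters of the members are shown first because CREB and NF-kappaB each bind a short DNA motif, and the study was designed to remove one of these factors. RefSeq promoter windows (GRCm38.p6), which run from 250 bases before to 50 bases after an annotated start, were matched by symbol for 8 of the 10 genes, with 13 windows in all; Nfkb1 and Relb were not matched. The windows were searched on both strands for the 10-letter kappaB consensus, for the cyclic AMP response element (CRE), TGACGTCA, and for its 5-letter core, TGACG, which lies inside the CRE. The kappaB motif was found for 6 of the 8 genes (Nfkb2, Rel, Nfkbia, Nfkbid, Nfkbie and Tnfaip3), and no match was found for Rela or Nfkbib. Of all genes with a window 5.14% held it, and of those tested between the libraries 6.27%. The CRE was found for 1 of the 8 genes, Nfkbid, against 2.03% of all genes and 3.80% of tested ones. The core was found for 5 of the 8, against 23.0% and 36.8%. These shares count a gene with a match in any of its windows, so genes with more windows have more chances. The 8 members had 13 windows, and the 27025 genes with a window had 32851. Of all windows 4.51% held the kappaB motif, 1.79% the CRE and 20.8% the core. A match describes letters in the window and does not show binding.

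The Nfkbid window that holds both motifs (chr7:30422156-30422455, plus strand) and the Nfkbia window (chr12:55492598-55492897, minus strand) are given 5′ to 3′ on the gene's strand, as the member with the CRE and the inhibitor gene with the highest level. Capitals mark kappaB motifs and, in Nfkbid, also the CRE at chr7:30422355-30422362, which begins 51 bases before the start.
Nfkbid: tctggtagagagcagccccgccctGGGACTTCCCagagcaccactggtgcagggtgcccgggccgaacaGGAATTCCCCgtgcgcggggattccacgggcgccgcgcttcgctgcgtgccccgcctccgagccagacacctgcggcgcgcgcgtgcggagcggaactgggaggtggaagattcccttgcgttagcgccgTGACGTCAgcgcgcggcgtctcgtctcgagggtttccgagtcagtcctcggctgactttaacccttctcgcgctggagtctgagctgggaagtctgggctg
Nfkbia: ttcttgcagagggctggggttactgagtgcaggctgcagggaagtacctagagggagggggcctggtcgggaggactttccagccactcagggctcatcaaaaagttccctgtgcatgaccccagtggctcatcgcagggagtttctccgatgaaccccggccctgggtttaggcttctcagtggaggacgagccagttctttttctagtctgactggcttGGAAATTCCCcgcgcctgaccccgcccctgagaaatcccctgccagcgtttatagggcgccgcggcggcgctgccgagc
For the other members with a kappaB motif, 1 match each is shown in capitals with its flanks, to let the motif letters be compared. The matches lie at chr19:46304698-46304707 (Nfkb2), chr11:23771052-23771061 (Rel), chr17:45555594-45555603 (Nfkbie) and chr10:19015413-19015422 (Tnfaip3, where the motif is on the opposite strand).
Nfkb2: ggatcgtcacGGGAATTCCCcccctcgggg
Rel: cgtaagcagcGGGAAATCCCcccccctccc
Nfkbie: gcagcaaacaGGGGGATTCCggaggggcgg
Tnfaip3: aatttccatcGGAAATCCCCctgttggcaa
The Nfkb2 and Rel matches read as a kappaB motif on either strand, and each overlaps a further match shifted by 1 base.

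Levels spread widely within both groups of genes, and the order of the members was the same in both libraries. Levels are given as RPKM, that is CPM, scaled by library size factors, divided by the kilobases of merged exons, with exact Poisson 95% intervals that cover counting error only. With this length the inhibitor gene Nfkbia was highest and the inhibitor gene Tnfaip3 lowest. The median RPKM was 39.2 for the subunits and 36.5 for the inhibitors in the KO-labelled library, and 38.3 and 36.9 in the wildtype library. Of the 10462 genes whose mean CPM reached 1, 9917 had a matched exon length, and over these the median was 6.53 and 6.55.

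Rela encodes p65, the subunit with a transactivation domain in the classical dimer. It (ENSMUSG00000024927.8; chromosome 19, 5637483 to 5648130, GRCm38) had 7278 reads in the KO-labelled library and 7459 in the wildtype library, or 98.7 RPKM (96.5 to 101) and 91.8 RPKM (89.7 to 93.9). The intervals did not overlap, and the KO-labelled library was the higher.

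Nfkb1 encodes p105, the precursor that is processed to the DNA-binding subunit p50. It (ENSMUSG00000028163.17; chromosome 3, 135584655 to 135691547) had the most reads of all members, 19593 and 22036 in the KO-labelled and wildtype libraries. Its RPKM was 67.7 (66.7 to 68.6) and 69.1 (68.2 to 70.0). This level depends on the length used, because its merged exons cover 12061 bases and its longest annotated transcript 4149. With the latter, Nfkb1 stood at 197 and 201 RPKM, the highest of the 10 genes, and Nfkbia came second at 158 and 159.

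Relb encodes the subunit that pairs with p52 in the alternative pathway. It (ENSMUSG00000002983.17; chromosome 7, 19606217 to 19629438) had 3651 and 3932 reads, or 39.2 RPKM (37.9 to 40.4) and 38.3 RPKM (37.1 to 39.5) in the KO-labelled and wildtype libraries. These intervals overlapped.

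Nfkb2 encodes p100, the precursor of p52 and itself an inhibitor of Relb dimers. It (ENSMUSG00000025225.15; chromosome 19, 46304320 to 46312385) had 388 and 379 reads, or 3.53 RPKM (3.18 to 3.90) and 3.13 RPKM (2.82 to 3.46). Relb thus stood 11.1-fold above Nfkb2 by RPKM in the KO-labelled library and 12.2-fold in the wildtype library. Exons of Psd on the opposite strand overlap those of Nfkb2 over 299 bases and had 721 and 643 reads, and the strand setting of the counting is not given, so reads there cannot be assigned to one gene.

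Rel encodes c-Rel, the subunit known for inducing Il2 in activated T cells. It (ENSMUSG00000020275.9; chromosome 11, 23736847 to 23770970) had 331 and 347 reads, or 1.85 RPKM (1.65 to 2.06) and 1.76 RPKM (1.58 to 1.95). Rela stood 53.4-fold and 52.2-fold above Rel by RPKM in the KO-labelled and wildtype libraries.

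Nfkbia encodes IkappaBalpha, the inhibitor that NF-kappaB rapidly re-induces. It (ENSMUSG00000021025.8; chromosome 12, 55489410 to 55492647) had 5975 and 6656 reads, or 155 RPKM (151 to 159) and 156 RPKM (153 to 160). By RPKM it was 1.57-fold above Rela, its main partner, in the KO-labelled library and 1.70-fold in the wildtype library.

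Nfkbib encodes IkappaBbeta, another cytoplasmic inhibitor. It (ENSMUSG00000030595.15; chromosome 7, 28758251 to 28767512) had 3414 and 3683 reads, or 65.6 RPKM (63.4 to 67.8) and 64.2 RPKM (62.1 to 66.3). Its exons overlap those of Sirt2, with 116 and 131 reads, over 42 bases on the opposite strand. They also overlap those of Ccer2, with 0 reads in both libraries, over 314 bases on that strand. Nfkbie encodes IkappaBepsilon, a further inhibitor of this kind. It (ENSMUSG00000023947.8; chromosome 17, 45555703 to 45563169) had 1136 and 1212 reads, or 15.5 RPKM (14.7 to 16.5) and 15.0 RPKM (14.2 to 15.9). Nfkbia stood 9.95-fold and 10.4-fold above Nfkbie by RPKM in the KO-labelled and wildtype libraries.

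Nfkbid encodes IkappaBNS, an atypical nuclear member of the inhibitor family that acts on p50 at promoters. It (ENSMUSG00000036931.15; chromosome 7, 30421732 to 30428746) had 2054 and 2293 reads, or 36.5 RPKM (34.9 to 38.1) and 36.9 RPKM (35.4 to 38.5). Tnfaip3 encodes A20, an enzyme that edits ubiquitin on upstream signalling proteins and is not an IkappaB protein. It (ENSMUSG00000019850.11; chromosome 10, 19000910 to 19015657) had only 33 and 42 reads, or 0.190 RPKM (0.131 to 0.267) and 0.220 RPKM (0.158 to 0.297). Of the 9917 genes with a mean CPM of at least 1 and a matched exon length, 2.62% had a lower mean RPKM than Tnfaip3. For Nfkbia this share was 97.1%, and for Rela 94.7%.

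**Figure D1:**
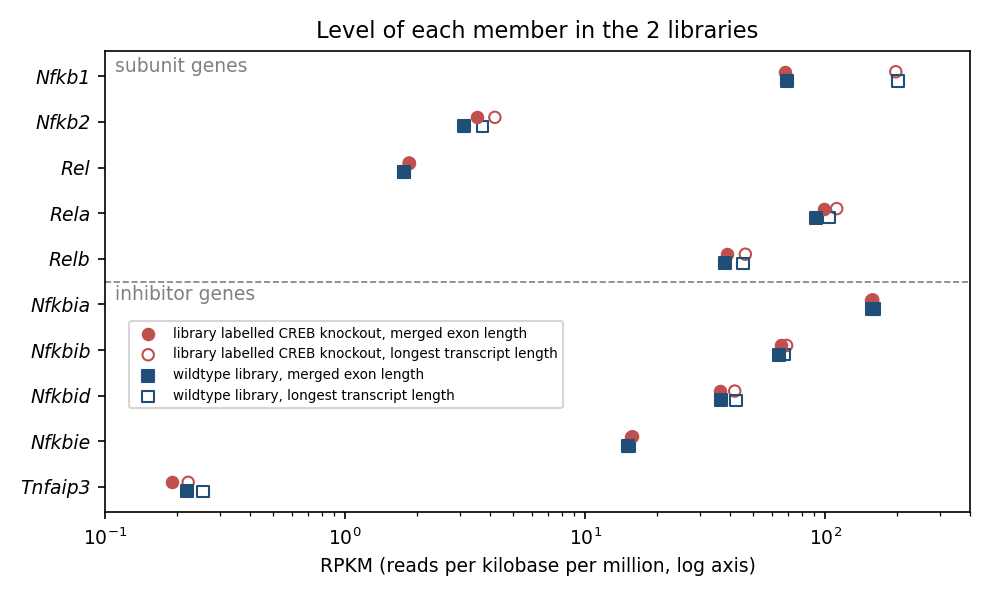
Level of each member in RPKM (log axis) in the KO-labelled library (circles) and the wildtype library (squares), with merged exon length (filled) or the longest transcript (open). The members span from 0.220 RPKM for Tnfaip3 to 156 RPKM for Nfkbia in the wildtype library with merged exons, and the choice of length moves Nfkb1 most.

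In both libraries the order by RPKM was Nfkbia, Rela, Nfkb1, Nfkbib, Relb, Nfkbid, Nfkbie, Nfkb2, Rel and Tnfaip3. Neighbours whose counting intervals overlapped were Relb and Nfkbid in both libraries, and Nfkb1 and Nfkbib in the KO-labelled library. The 3 lowest members, Nfkb2, Rel and Tnfaip3, have 3, 1 and 2 curated RefSeq transcripts, and the 3 highest, Nfkbia, Rela and Nfkb1, have 1, 2 and 1. How reads that match several transcripts were counted is not given, and the part of this in the levels was not tested. In bulk samples fewer cells of a type and less RNA per cell cannot be told apart.

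Between the libraries the members differed little. No member was 1.5-fold apart with a 95% interval excluding 1, against 3.98% of the 10462 genes tested, those with a mean CPM of at least 1, a filter that all 10 members passed. The interval lay above 1 for 1 of 10 members (Rela), against 16.2% of all tested genes, and below 1 for 1 of 10 (Nfkb1), against 19.5%. These shares are no higher than the background and set the members apart in no direction.

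Rela was 1.08-fold higher in the KO-labelled library (1.04 to 1.11; exact conditional binomial interval, counting error only). Its log2 ratio of 0.10 was within the spread of genes at a mean CPM of at least 100, whose log2 ratios had an SD of 0.12 between these libraries. Nfkb1 had a ratio of 0.980 (0.961 to 0.999), and its interval included 1 when libraries were scaled by total counts. Nfkb2 had the highest ratio of the members, 1.13 (0.977 to 1.30), and Rel had 1.05 (0.902 to 1.23), each on few reads. The ratio of Relb was 1.02 (0.978 to 1.07).

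Among the inhibitors, Nfkbia had a ratio of 0.989 (0.955 to 1.02). The ratio of Nfkbib was 1.02 (0.975 to 1.07) and that of Nfkbie 1.03 (0.952 to 1.12). Nfkbid, the member with the CRE shown above, had a ratio of 0.987 (0.930 to 1.05). Tnfaip3 had the lowest ratio, 0.868 (0.532 to 1.40), and its depth allows either direction.

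**Figure D2:**
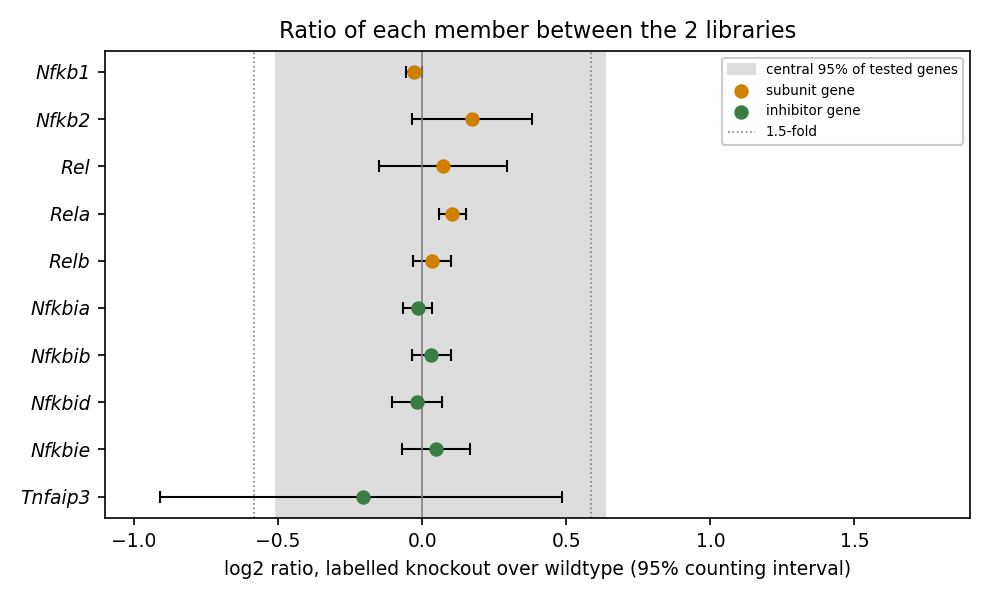
Log2 ratio of each member, KO-labelled library over wildtype, with 95% counting intervals; orange points are subunit genes, green points inhibitor genes, the grey band spans the central 95% of tested genes and dotted lines mark 1.5-fold. All 10 points lie inside the band, and the interval of Tnfaip3 is the widest.

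The median log2 ratio was 0.07 for the 5 subunits (range -0.03 to 0.17) and -0.02 for the 5 inhibitors (range -0.20 to 0.05), beside -0.01 over all tested genes. Of the subunits 4 had a ratio over 1 and 1 under it, and of the inhibitors 2 and 3. The sign of the inhibitor median was not stable: it was 0.03 over the classical inhibitors Nfkbia, Nfkbib and Nfkbie alone, and 0.01 over the 4 with a mean of at least 10 CPM. The ranges of the 2 groups overlapped, and no test of their difference was possible.

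**Figure D3:**
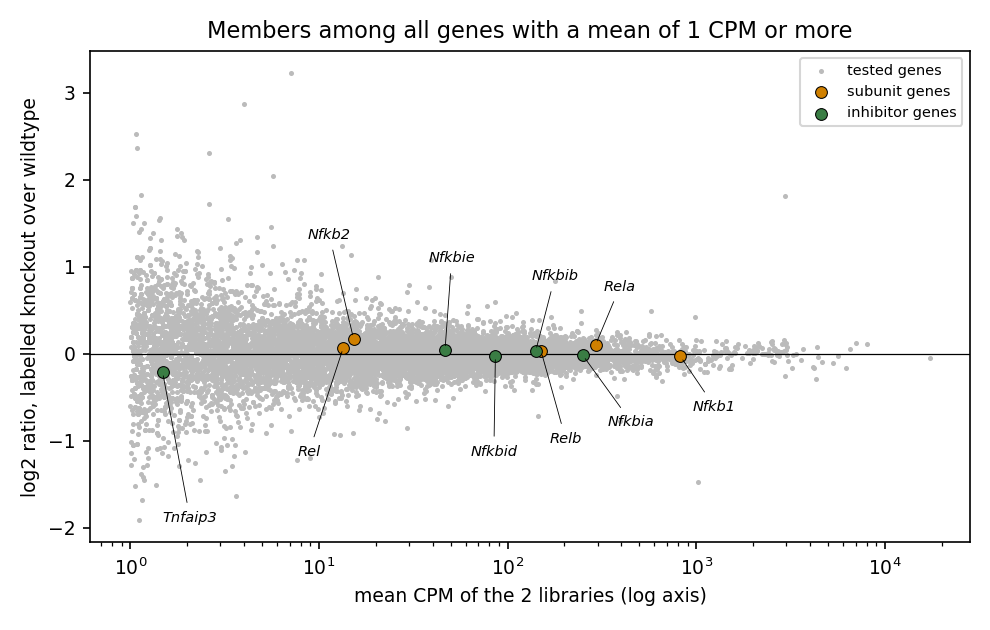
Log2 ratio of the KO-labelled library over wildtype against mean CPM (log axis) for all 10462 tested genes (grey), with subunit genes in orange and inhibitor genes in green. The members lie within the cloud of genes of like level, from Tnfaip3 at 1.48 CPM to Nfkb1 at 825 CPM.

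Ratios of genes within a library do not depend on how libraries are scaled. The 5 inhibitor genes together had 12612 reads and the 5 subunit genes 31241 in the KO-labelled library, a ratio of 0.404. In the wildtype library they had 13886 and 34153, a ratio of 0.407. These are reads not divided by gene length, so they do not compare transcript levels of the groups. By summed RPKM the ratio was 1.29 in the KO-labelled library and 1.34 in the wildtype library. Those values use merged exon lengths, on which the level of Nfkb1 depends. By reads, the inhibitor to subunit ratio in the KO-labelled library was thus 0.993 times that of the wildtype library (0.965 to 1.02, exact conditional interval). Nfkb1 made up most subunit reads, and without it the value by reads was 0.945 (0.912 to 0.979). When Nfkb1 and Nfkb2, whose precursors also carry inhibitor repeats, were counted as inhibitors, it was 0.936 (0.908 to 0.964).

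Within the libraries, the shares of Nfkb1 and Rela in the subunit reads differed slightly. Nfkb1 contributed 62.7% of subunit reads in the KO-labelled library (62.2 to 63.3, Clopper-Pearson) and 64.5% in the wildtype library (64.0 to 65.0). Rela contributed 23.3% (22.8 to 23.8) and 21.8% (21.4 to 22.3). By RPKM with merged exons, the shares were 32.1% and 33.9% for Nfkb1 and 46.8% and 45.0% for Rela. The ratio of Nfkb1 to Rela reads was 0.911 times as high in the KO-labelled library (0.877 to 0.946). Of the 45 pairs of members, 3 had an interval excluding 1, and all 3 involved Rela: the other partners were Nfkbia and Nfkbid. Pairs that share Rela are not separate results. No share over pairs of other genes was computed, so the count does not set the members apart. The ratio of Nfkbia to Rela reads, an inhibitor and its main target, was 0.920 times as high (0.877 to 0.965).

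Within the inhibitors, the composition was close in the 2 libraries. Nfkbia gave 47.4% of inhibitor reads in the KO-labelled library (46.5 to 48.3) and 47.9% in the wildtype library (47.1 to 48.8). Nfkbib gave 27.1% (26.3 to 27.9) and 26.5% (25.8 to 27.3). The alternative pathway pair Nfkb2 and Relb had a within-library ratio 1.10 times as high in the KO-labelled library, with an interval that includes 1 (0.948 to 1.28).

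The genes that act before and after the members were taken from 7 lists with 76 genes, of which 73 were listed and 66 reached a mean of 1 CPM. Of these 66, 23 had an interval above 1 and 9 below, 34 had neither, and 2 were 1.5-fold apart (Nfat5 and Il2), beside the background shares given above. The median log2 ratio was 0.06.

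Of 13 genes between the receptor and the kinases, 3 had an interval above 1, 3 below and 7 neither (median log2 ratio 0.02). Tab1, an adaptor of the kinase TAK1, had 831 and 722 reads and a ratio of 1.27 (1.15 to 1.40), and its partner Tab2 had 7885 and 9116 reads and a ratio of 0.953 (0.925 to 0.983). Malt1, a protease of T cell receptor signalling, had 8410 and 8841 reads and a ratio of 1.05 (1.02 to 1.08). The kinase gene Prkcq, which acts close to the receptor, had a ratio of 0.942 (0.909 to 0.976), and the adaptor gene Traf2 1.11 (1.04 to 1.19). Of 4 linear ubiquitin genes, none had an interval excluding 1 (median 0.06), with the ligase gene Rnf31 at 1.04 (0.983 to 1.11) and its partner Sharpin at 1.02 (0.959 to 1.08).

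Of 5 measured IkappaB kinase and related genes, 1 had an interval above 1, 2 below and 2 neither (median -0.12). Ikbke, a kinase outside the classical complex, had 4691 and 4431 reads and a ratio of 1.17 (1.12 to 1.22). Ikbkb, the main classical kinase, had 194 and 264 reads and a ratio of 0.810 (0.669 to 0.979), and Tbk1, the close relative of Ikbke, 0.923 (0.858 to 0.993). Ikbkb and Tbk1 were thus lower and Ikbke higher in the KO-labelled library, all by less than 1.5-fold. Chuk, the other kinase gene of the classical complex, had 89 and 91 reads and a ratio of 1.08 (0.796 to 1.46). It is named after its values were seen, and its interval allows either direction. Ikbkg, chosen here after its values were seen because it completes the classical complex, had 0 reads in both libraries. A count of 0 allows up to 0.125 and 0.113 CPM if all reads of a gene could be counted, and it sets no limit if reads that match several transcripts were dropped.

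Of 7 alternative pathway genes, 1 had an interval above 1 and 6 neither (median 0.06). This was Tnfrsf4, the costimulatory receptor OX40, with 14491 and 13628 reads and a ratio of 1.172 (1.145 to 1.1998), and the ubiquitin ligase gene Birc3 had a ratio of 0.994 (0.949 to 1.04). Of the 2 measured further IkappaB family genes, Bcl3, a nuclear member that binds p50 and p52, had 4284 and 5056 reads and a ratio of 0.934 (0.896 to 0.973), and Nfkbil1 1.03 (0.946 to 1.13). Bcl3 stood at 72.1 and 77.2 RPKM in the KO-labelled and wildtype libraries, above Nfkbid, the nuclear inhibitor among the members. Of 9 other negative regulators, 2 had an interval above 1, 1 below and 6 neither (median 0.05). Tnip1, a partner of A20, had 358 and 338 reads and a ratio of 1.167 (1.003 to 1.359). The RNase gene Zc3h12a had a ratio of 1.09 (1.01 to 1.17), Tax1bp1, an adaptor of A20, 0.936 (0.903 to 0.971), and N4bp1 0.962 (0.914 to 1.01).

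Of 26 measured target genes, 16 had an interval above 1, against 16.2% of all tested genes, 2 below, against 19.5%, and 8 neither. Their median log2 ratio was 0.13 beside -0.01 over all tested genes. The targets are mostly known NF-kappaB targets of activated T cells, but several respond to other factors as well. A counting interval excludes 1 more readily at high read counts, and the shares over all tested genes were not matched for level. The count is a description of this list. Il2, the T cell growth factor gene and a c-Rel target, had a ratio of 1.53 (1.35 to 1.75) on 558 and 401 reads. Lta, the lymphotoxin gene, had 27062 and 22295 reads and a ratio of 1.34 (1.31 to 1.36). The cytokine gene Csf2 had 1.39 (1.21 to 1.60). Nfat5 had 2.28 (1.33 to 4.16) on only 42 and 20 reads. The highest by reads summed over both libraries, the IL-2 receptor gene Il2ra and the transcription factor gene Irf4, had ratios of 1.023 (1.012 to 1.033) and 1.021 (1.003 to 1.039). The 2 genes with an interval below 1 were Cd69, an early activation marker, at 0.889 (0.840 to 0.940) and Slfn2 at 0.923 (0.892 to 0.955); both are named after their values were seen.

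**Figure D4:**
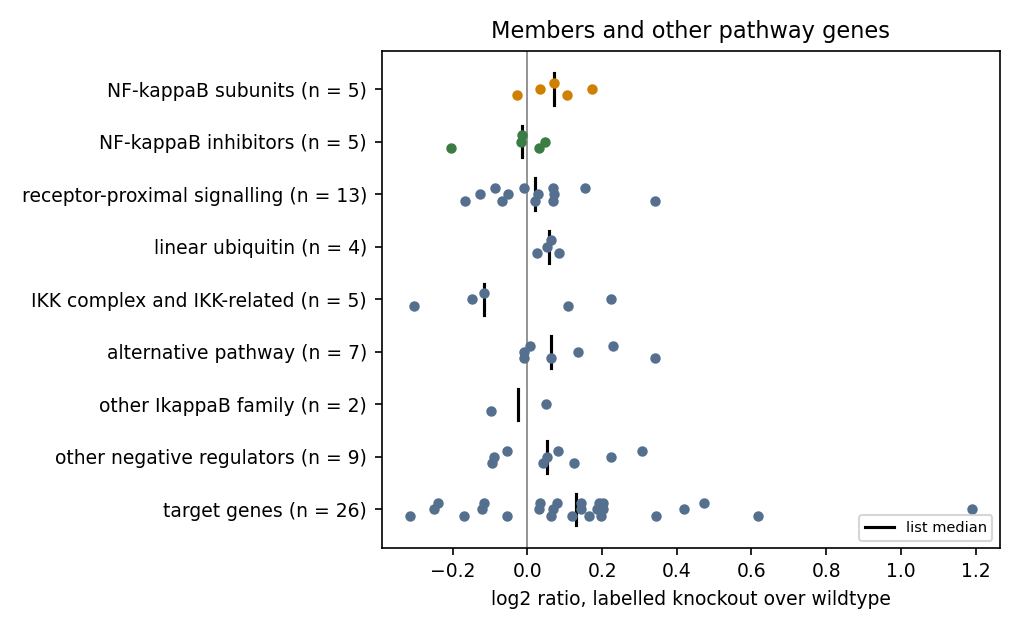
Log2 ratios, KO-labelled library over wildtype, of the members and of the other pathway genes tested, by list, with the list median as a bar and the number tested in brackets. The subunits and inhibitors span from -0.20 to 0.17, and the target genes reach from -0.32 to 1.19.

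The motifs of the members can be set beside the ratios of all genes that hold them. Of 7912 tested genes with a promoter window, 301 held the CRE, and their median log2 ratio was -0.02, beside -0.01 for those without it. The 496 tested genes with a kappaB motif had a median of 0.00, and those without it -0.01. The interval lay above 1 for 17.1% of genes with a kappaB motif and 15.8% of those without, and below 1 for 19.8% and 19.3%. With the CRE it lay above 1 for 13.6% and below for 20.9%, beside 15.98% and 19.3% without. The 2909 tested genes with the core had a median of -0.017, beside -0.001 without it. Their interval lay above 1 for 15.0% and below for 22.8%, beside 16.4% and 17.4% without the core. For the CRE with 1 mismatch allowed, the shares below 1 were 23.1% with it and 18.7% without. Genes with and without a motif were not matched for level, and the part of this was not tested.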

How the data were processed

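For each library the authors deposited raw counts, 1 whole number of uniquely assigned reads for each gene symbol, per the file headers. Per the submitters' processing notes, bcl2fastq and HTSeq were used with mm10; the aligner, annotation and strand setting are not stated in the sources used here. The header totals equal the sums of the counts, and a gene listed in 1 library was taken as 0 in the other.

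Library sizes were scaled with edgeR 4.0.16 (TMM, R 4.3.3) over the whole table, and 0.5 reads, in proportion to library size, were added before forming ratios. Without replicates edgeR's quasi-likelihood test could not be run, so no p-value is given. Intervals (95%) are exact (conditional binomial for ratios, Fisher's conditional for ratios within libraries, Poisson for levels) and cover counting error only (PCR reads are not independent molecules). Genes entered at a mean of 1 CPM or more. RPKM values were computed from the counts with merged exon lengths of GENCODE M21 (GRCm38), the build of the files; promoters are from RefSeq (GRCm38.p6). Protein sequences were not analysed here. Otulin and Adgre1 were matched by their older symbols Fam105b and Emr1.

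Named were all 10 members, Creb1 and, per list, up to 4 genes whose ratio lies farthest from 1 among those with an interval excluding 1 and the 2 with the most reads. A gene that this rule takes is not reported here. The members, lists and rules were chosen with earlier results of these data known. The steps were tested on simulated counts. Alternatives included other scalings (DESeq2 1.42.0 size factors among them), thinning, filters, gene lengths and groupings of members. Python 3.11.15 with scipy 1.17.1 was used.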

Additional observations from a re-analysis of the deposited data

How the results depend on the processing

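No paired analysis was possible because each group holds 1 library, and for the same reason no replicate could be left out. Under the 5 alternatives of scaling, thinning and prior count, all 50 ratios of the members stayed on the same side of 1 and inside their counting intervals. The ratio of Rela ranged from 1.07 to 1.08, that of Nfkb1 from 0.979 to 0.985 and that of Tnfaip3 from 0.867 to 0.915. The count of members with an interval below 1 was 1 (Nfkb1) and became 0 with scaling by total counts, with upper quartile scaling and with the thinned wildtype library. The inhibitor to subunit ratio between libraries of 0.993 moved to 0.945 without Nfkb1 and to 0.936 with Nfkb1 and Nfkb2 counted as inhibitors, since these change which genes are summed. By summed RPKM of the same genes it was 0.966, near the lower end of the counting interval by reads (0.965 to 1.02). With 1 mismatch allowed, 5 members in place of 1 held the CRE and 8 in place of 6 the kappaB motif, against 14.2% and 48.6% of all genes and 15.8% and 56.0% of tested ones. Using the longest transcript changed the level of Nfkb1 in the wildtype library from 69.1 to 201 RPKM, and those of the other members by less than 1.5-fold. The median log2 ratio of the inhibitors turned from -0.02 to 0.03 over the classical inhibitors alone and to 0.01 at a mean of 10 CPM or more, by less than the counting interval of its middle gene. The remaining alternatives kept counts within 1.5 times and the sign of both medians. Depth limits Tnfaip3, Rel and Nfkb2 most, and the spread between cultures of one genotype cannot be known from 1 library each.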

Other observations

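In all, 7 listed genes of the pathway had too few reads to reach a mean of 1 CPM, and all 7 are given here after their values were seen. Nfkbiz, which encodes the nuclear inhibitor IkappaBzeta, had 2 and 3 reads in the KO-labelled and wildtype libraries. The deubiquitinase gene Cyld had 4 and 10 reads, the ligase gene Itch 6 and 8, and the deubiquitinase gene Otud7b 13 and 8. Among the targets, Irf1 had 5 and 3 reads and Vcam1 17 and 6, and the lymphotoxin receptor gene Ltbr had 17 and 16. Bcl2a1a and Myc were at 0 in both libraries, and the near-identical copies Bcl2a1b and Bcl2a1d, whose reads may be shared or dropped, had 67 and 63 reads in the KO-labelled library and 88 and 82 in the wildtype library. Reads that could not be assigned to 1 gene are not listed, so these low counts do not show that the genes were silent.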
